A study of Homo sapiens with 24 samples.

Results

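A375 is a human melanoma cell line, and the samples described here are its 6 parent libraries. They were chosen by title, 3 libraries of A375 parent cells given DS07551382 and 3 given the vehicle DMSO, out of 24 libraries in the series. Both groups carry the wild type genotype in the labels and were collected 24 h after the addition of 0.1 µM DS07551382 or of DMSO alone. The series is titled as a study of a PTDSS1 inhibitor, named here the inhibitor, against cancers that have lost PTDSS2, and it also holds HCT116 colon cancer cells and a PTDSS2 knockout clone of each line. The A375 knockout is 1 clone, and its 3 vehicle and 3 inhibitor libraries, at the same dose and time, are used below for comparison, as are the 6 libraries of HCT116 parent cells. The labels do not say whether the 3 libraries of a group came from separate cultures, so the p-values rest on a spread among libraries that may be only technical.

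PTDSS1 and PTDSS2 are the enzymes of the endoplasmic reticulum that make phosphatidylserine, by exchanging serine for the head group of phosphatidylcholine or of phosphatidylethanolamine. The same membrane holds the sterol sensor of the cell. When its cholesterol is low, SCAP carries the SREBP transcription factors, products of SREBF1 and SREBF2, to the Golgi, where they are cut and released to switch on genes of cholesterol and fatty acid synthesis. When cholesterol is ample, INSIG proteins hold SCAP back, and oxysterols activate the LXR receptors, which switch on the exporter gene ABCA1. SREBF2 and INSIG1 are themselves targets of SREBP. Serine for phosphatidylserine is taken up or made from glycolysis by PHGDH, PSAT1 and PSPH, genes driven by ATF4, the factor of the integrated stress response.

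In units of 1e6 counts, totals were 7.71 to 8.28 in the vehicle libraries and 9.34 to 10.83 in the inhibitor libraries, so every inhibitor library was the deeper. With all 6 libraries thinned to 1 depth, an alternative added after seeing the data, 14 genes were again called, 13 of them shared with the deposited depth. The cells carried the neural crest marker RNAs SOX10, at a median of 395 CPM (counts per 1e6), and ERBB3, at 323 CPM. The pigment genes TYR, TYRP1, DCT, PMEL and MLANA were at medians under 1 CPM. The 17 neural crest markers summed to 1134 to 1146 CPM in vehicle and 1082 to 1136 CPM with the inhibitor, against 45.4 to 51.5 CPM in HCT116 parent cells. The 17 colon markers summed to 264.9 to 287.1 CPM in vehicle and 267.4 to 285.9 CPM with the inhibitor, nearly all from KRT18 and KRT8. Of these, 15 had medians under 1 CPM, among them EPCAM at 0.257 CPM and CDX2 at 0. RNA was measured in bulk, so fewer cells of a kind and less RNA per cell cannot be told apart.

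The promoters of 5 genes are shown so that the sterol and amino acid response motifs can be read beside the values. SREBF2, INSIG1, SCD and PSAT1 were called below, and ASNS was not. Each is the 250 bases before the start site on GRCh38.p14, from RefSeq, 5′ to 3′ on the gene's strand. Capitals mark matches, on either strand, to TCACNCCAC (a core of the sterol regulatory element bound by SREBP), to CCAAT (the box bound by NF-Y) and to TGATGNAA (a form of the element bound by ATF4 with a CEBP partner). The windows are SREBF2 at chr22:41832855-41833104 (plus strand), INSIG1 at chr7:155297628-155297877 (plus), SCD at chr10:100346983-100347232 (plus), PSAT1 at chr9:78296875-78297124 (plus) and ASNS at chr7:97872409-97872658 (minus).
SREBF2: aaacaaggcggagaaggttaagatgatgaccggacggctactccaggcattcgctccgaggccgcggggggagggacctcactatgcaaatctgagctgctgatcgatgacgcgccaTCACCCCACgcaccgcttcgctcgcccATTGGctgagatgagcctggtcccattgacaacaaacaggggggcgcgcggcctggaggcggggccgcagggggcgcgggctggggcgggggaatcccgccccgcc
INSIG1: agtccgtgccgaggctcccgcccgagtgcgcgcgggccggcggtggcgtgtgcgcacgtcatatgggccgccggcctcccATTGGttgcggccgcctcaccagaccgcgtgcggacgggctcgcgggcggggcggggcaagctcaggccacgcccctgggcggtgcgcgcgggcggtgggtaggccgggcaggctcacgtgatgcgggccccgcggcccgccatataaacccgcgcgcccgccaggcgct
SCD: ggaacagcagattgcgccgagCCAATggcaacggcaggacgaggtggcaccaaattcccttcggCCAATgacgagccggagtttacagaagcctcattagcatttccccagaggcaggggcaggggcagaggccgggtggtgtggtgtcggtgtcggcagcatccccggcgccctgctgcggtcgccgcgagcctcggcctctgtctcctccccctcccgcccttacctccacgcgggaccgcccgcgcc
PSAT1: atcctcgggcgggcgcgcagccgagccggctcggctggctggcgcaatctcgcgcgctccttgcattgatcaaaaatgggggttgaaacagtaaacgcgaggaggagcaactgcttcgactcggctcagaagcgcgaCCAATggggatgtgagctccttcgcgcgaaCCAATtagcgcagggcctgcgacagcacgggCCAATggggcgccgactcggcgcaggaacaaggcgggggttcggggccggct
ASNS: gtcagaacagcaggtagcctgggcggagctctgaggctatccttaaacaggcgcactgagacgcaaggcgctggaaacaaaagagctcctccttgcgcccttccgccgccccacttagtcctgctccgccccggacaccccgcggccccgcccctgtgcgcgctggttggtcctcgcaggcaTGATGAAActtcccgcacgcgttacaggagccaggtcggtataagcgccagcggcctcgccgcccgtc

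The SREBF2 window holds TCACCCCAC 133 bases before the start, with a reversed CCAAT box at 106 bases. Among all 35116 promoter windows, 0.883% hold TCACNCCAC, 32% hold CCAAT and 3.14% hold TGATGNAA. Of the 14 genes called below, 12 had a window, of which 1 held the sterol element (SREBF2), 10 a CCAAT box and 0 TGATGNAA. Of the 39 genes tested in the sterol lists below, 30 had a window, and 1 of these (SREBF2) held TCACNCCAC. The windows of SCD (229 and 186 bases before the start) and PSAT1 (113, 83 and 52 bases) hold several CCAAT boxes, and that of INSIG1 holds 1, reversed, at 170 bases. The ASNS window holds TGATGAAA 68 bases before the start. A match describes the letters of a window and is no evidence of binding, and a window without a match says only that those letters are not in it.

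Few genes differed between inhibitor and vehicle in A375 parent cells. Of 13455 genes tested, 14 passed an adjusted p of 0.05 (edgeR's quasi-likelihood test with Benjamini-Hochberg adjustment), which is 0.104%. An unadjusted p under 0.05 was reached by 884 genes, where 672.8 would be expected if no gene had changed. This excess depended on the method and the libraries. DESeq2 on the same libraries gave 379 genes, and edgeR without inhibitor replicate 2 gave 712 against 681.2 expected. Of the 14 calls, the 5 that rose were 0.0372% of the genes tested and the 9 that fell 0.0669%. Their changes ran from 1.095-fold to 1.492-fold, and in all 14 the 3 vehicle libraries did not overlap the 3 inhibitor libraries. Among all genes tested, 6.5% were separated in this way with the inhibitor higher and 5.51% with it lower.

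**Figure D1:**
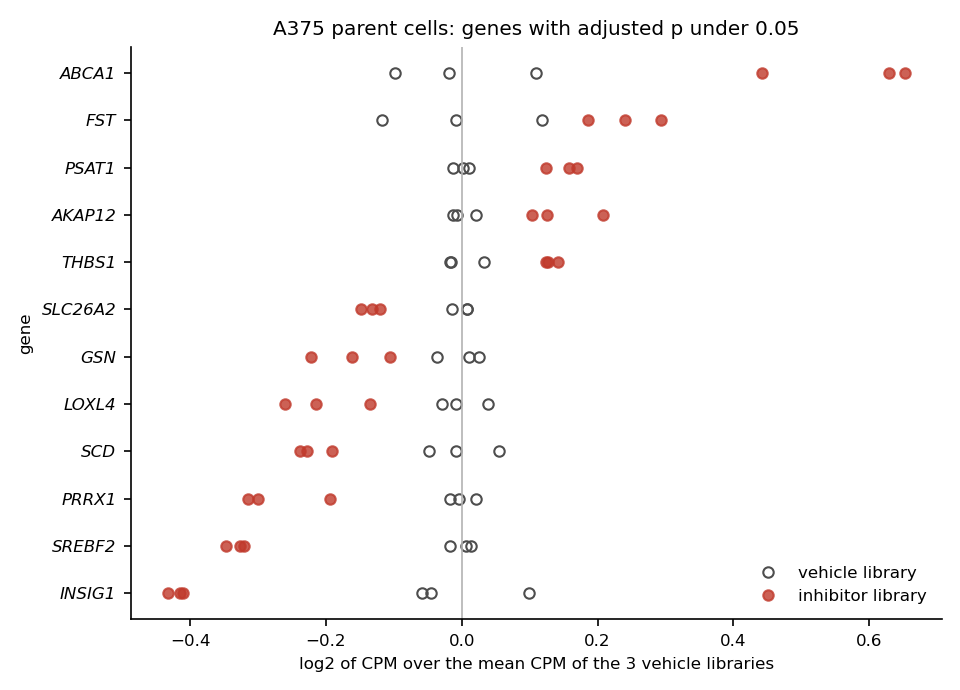
Genes called in A375 parent cells (rows, 12 of 14), with each library's CPM as the log2 ratio to the mean of the 3 vehicle libraries (x axis); open points are vehicle libraries and filled points inhibitor libraries. In every row the filled points lie wholly to 1 side of the open points, farthest for ABCA1 and INSIG1.

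SREBF2 (gene ID 6721), which encodes the SREBP2 factor, had the smallest p. Its level was 103.9, 102.3 and 104.5 CPM in the vehicle libraries and 82.9, 81.4 and 82.6 CPM in the inhibitor libraries. The libraries of a group lay close together and the groups were far apart in comparison. SREBF2 fell by 0.33 ± 0.05 (SE, n = 3 per group) on the log2 scale, with an edgeR adjusted p of 1.12e-05. In percent it fell by 20.6%.

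INSIG1 (3638), the ER anchor that retains SCAP, was at 36.5, 33.0 and 32.7 CPM in vehicle and at 25.5, 25.6 and 25.2 CPM with the inhibitor. All 3 inhibitor libraries lay below the lowest vehicle library. It fell by 0.42 ± 0.07 (edgeR adjusted p = 0.00147), and without vehicle replicate 1 the adjusted p was 0.0524.

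Most other sterol genes leaned the same way without passing the test. Of 39 genes tested in the lists of sterol sensing and uptake, the mevalonate pathway and the enzymes after squalene, 4 fell and 0 rose. In 29 the log2 change was below 0, against 6464 of all 13455 genes tested. In 16 the inhibitor libraries all lay below the vehicle libraries (5.51% of all genes) and in 0 all above (6.5%). The median was -0.09 against 0.00 over all genes. Calls over all genes were 0.0669% downward and 0.0372% upward. These lists were chosen with the results of these libraries known, so their lean is no independent evidence of a direction.

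The steps of the pathway are given in turn, and differences between them were not tested. For scale, 0.0669% of all genes tested were called lower and 5.51% were separated downward. The 13 enzymes after squalene had a median of -0.13, with 1 fall and 5 separated downward. DHCR7, the reductase of the last step from 7-dehydrocholesterol, was at 55.0, 60.4 and 57.2 CPM in vehicle and 52.6, 49.0 and 44.4 CPM with the inhibitor. Its change was -0.25 ± 0.06 (edgeR adjusted p = 0.163) and without inhibitor replicate 1 it passed the test (adjusted p = 0.0350). SQLE, the epoxidase of squalene, had a change of -0.20 ± 0.07 and LSS, the cyclase that follows it, one of -0.19 ± 0.07, both with separated groups. The 10 mevalonate genes had a median of -0.07, with 0 calls and 3 separated downward: FDFT1 at -0.15 ± 0.05, IDI1 at -0.15 ± 0.06 and HMGCS1 at -0.12 ± 0.06.

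Other enzymes of the pathway lay near 0. FDPS, which makes farnesyl diphosphate, was at 132.6, 135.8 and 137.8 CPM in vehicle and 136.7, 128.4 and 145.0 CPM with the inhibitor, a change of 0.01 ± 0.04. CYP51A1, the demethylase of lanosterol, was at -0.03 ± 0.06, and both had overlapping libraries.

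In the list of sterol sensing and uptake, 3 of 16 genes fell (0.0669% of all genes), 8 were separated downward (5.51%) and the median was -0.06. The median rested in part on 1 library, since it was -0.02 without inhibitor replicate 2. STARD4, which carries sterol between membranes, had the largest change of the list, from 7.46, 7.86 and 7.52 CPM to 4.51, 5.26 and 5.69 CPM. At this low level the change of -0.55 ± 0.17 did not pass (edgeR adjusted p = 0.351). The lysosomal exporters of cholesterol NPC1, at -0.09 ± 0.06, and NPC2, at -0.13 ± 0.07, and the ER ubiquitin ligase RNF139, at -0.12 ± 0.07, were separated downward without a call. SREBF1 at 0.01 ± 0.04 and SCAP at 0.03 ± 0.05 overlapped.

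**Figure D2:**
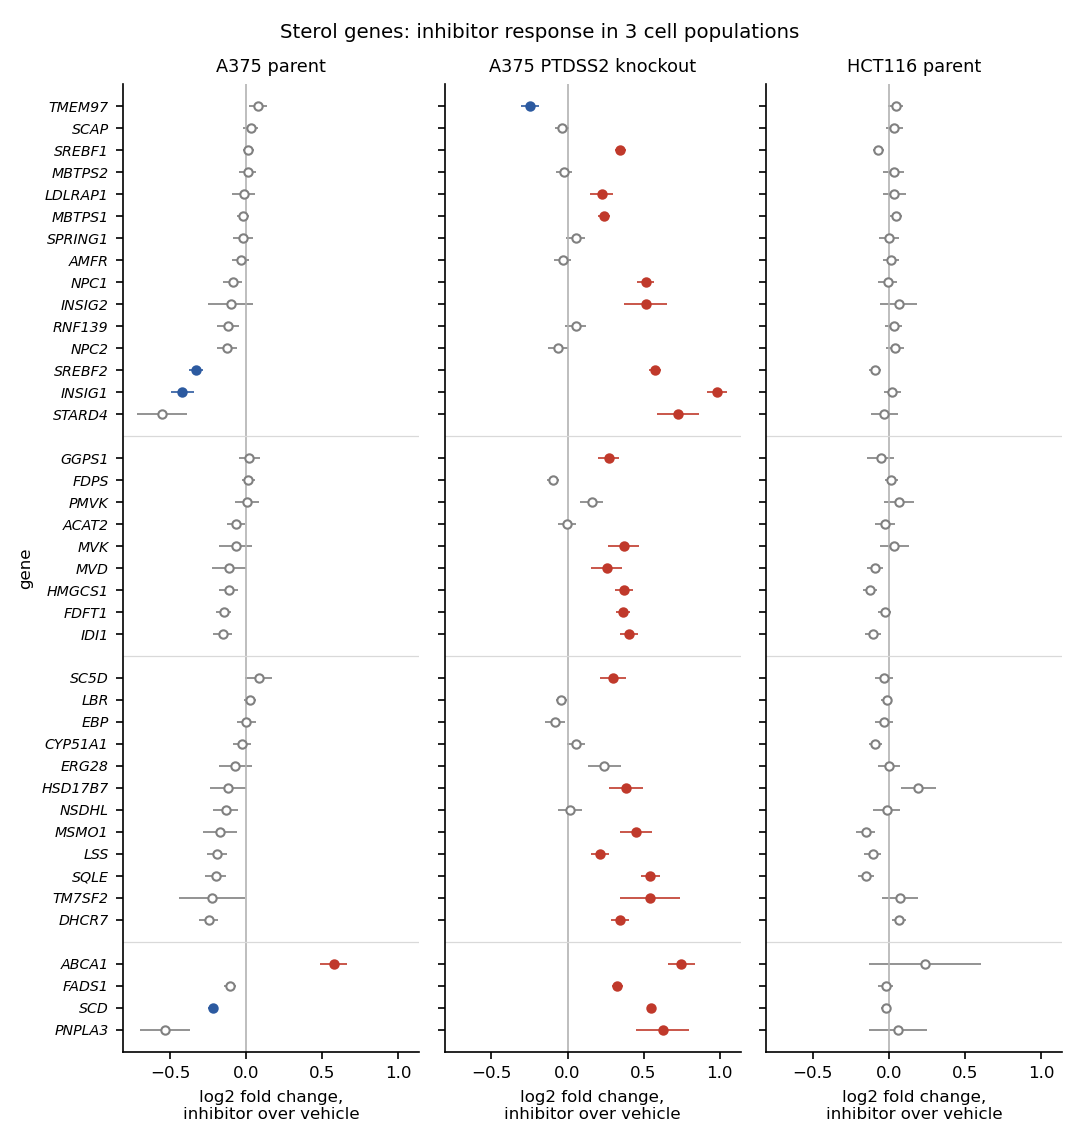
Log2 fold change, inhibitor over vehicle (x axis, points with SE bars), of 36 sterol genes and 4 lipid genes in A375 parent cells, A375 PTDSS2 knockout cells and HCT116 parent cells; blocks from top are sensing and uptake, mevalonate pathway, enzymes after squalene, and fatty acid and LXR genes. Filled points passed an adjusted p of 0.05 (red higher, blue lower): in A375 parent cells most points lie left of 0, in the knockout most filled points lie right of it, and in HCT116 parent cells there are no filled points.

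SCD (6319), the desaturase that makes oleate and palmitoleate and a target of SREBP and LXR, was at 412.5, 431.2 and 401.6 CPM in vehicle and 363.7, 351.8 and 354.5 CPM with the inhibitor. It fell by 0.22 ± 0.03 (edgeR adjusted p = 1.12e-05), and the groups were well apart. Among 24 genes of fatty acid synthesis and desaturation it was the only call, with 5 separated downward, 1 upward and a median of -0.05. The shares over all genes were 5.51% downward and 6.5% upward. PNPLA3, a lipase gene driven by SREBP1c, was at 7.82, 8.38 and 9.31 CPM in vehicle and 6.33, 4.69 and 6.60 CPM with the inhibitor, a change of -0.53 ± 0.16 (edgeR adjusted p = 0.388). FADS1, a desaturase of polyunsaturated fatty acids, was at -0.11 ± 0.04.

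ABCA1 (19), which exports cholesterol to apolipoprotein, moved opposite to the synthesis genes. Its level was 18.4, 21.3 and 19.5 CPM in vehicle and 30.5, 31.0 and 26.8 CPM with the inhibitor, so the lowest inhibitor library stood above the highest vehicle library. ABCA1 rose by 0.58 ± 0.09 (edgeR adjusted p = 7.99e-05), a rise of 49.2% and the largest change among the 14 calls. No other member of the list of LXR receptors and sterol efflux was called, of 14 tested, and the list's median was 0.03. In the list, 2 were separated upward (ABCA1 and LPCAT3) and 1 downward (TMEM135), against 6.5% and 5.51% of all genes. LPCAT3, a phospholipid acyltransferase and LXR target, was at 51.9, 52.1 and 50.7 CPM in vehicle and 57.2, 53.8 and 56.4 CPM with the inhibitor, a change of 0.11 ± 0.06. TMEM135 was at -0.20 ± 0.07. The LXR targets ABCG1, at 0.28 ± 0.31, and MYLIP, at 0.20 ± 0.12, had overlapping libraries, and the receptor genes NR1H3, at 0.10 ± 0.14, and NR1H2, at -0.01 ± 0.05, did too.

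On the side of serine, PSAT1 (29968), the aminotransferase of the second step of serine synthesis, was at 454.5, 462.2 and 459.1 CPM in vehicle and 515.6, 511.8 and 499.9 CPM with the inhibitor. It rose by 0.15 ± 0.03 (edgeR adjusted p = 0.00175), and the groups did not overlap. Without vehicle replicate 1 the adjusted p was 0.0524. Its neighbours in the pathway lay closer to 0: PHGDH, the first step, was at 0.03 ± 0.03 and PSPH, the last, at 0.02 ± 0.07.

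Of 17 genes of serine, glycine and one-carbon synthesis, PSAT1 alone was called, 3 were separated upward and 0 downward, and the median was 0.04. Over all genes, 6.5% were separated upward and 5.51% downward. MTHFD2, a mitochondrial folate enzyme, was at 371.0, 392.4 and 367.0 CPM in vehicle and 398.6, 403.3 and 415.8 CPM with the inhibitor, a change of 0.11 ± 0.03 (edgeR adjusted p = 0.290). ALDH1L2, another mitochondrial folate enzyme, was at 0.16 ± 0.06, also separated. SHMT2, which makes glycine from serine in mitochondria, was at 0.06 ± 0.03.

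The wider ATF4 genes leaned upward without a call. Of 23 genes of the integrated stress response, 20 had a log2 change above 0, against 52.0% of all genes tested. In 7 the libraries were separated upward and in 1 downward, against 6.5% and 5.51% of all genes. Of the 23, 0 were called, and the median was 0.07. ATF4 itself was at 349.7, 332.9 and 339.8 CPM in vehicle and 358.3, 370.0 and 367.4 CPM with the inhibitor, a change of 0.10 ± 0.03 (edgeR adjusted p = 0.428). GDF15, a secreted stress factor, had a low level of 4.45, 3.87 and 3.82 CPM in vehicle and 6.33, 6.22 and 5.78 CPM with the inhibitor, a change of 0.59 ± 0.19. The secreted factor STC2, at 0.25 ± 0.08, and CHAC1, a glutathione-degrading enzyme, at 0.23 ± 0.10, were separated upward as well.

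Asparagine synthetase, ASNS, went from 149.0, 155.4 and 153.6 CPM to 165.6, 170.0 and 166.4 CPM, a change of 0.13 ± 0.04 (edgeR adjusted p = 0.296). All inhibitor libraries stood above all vehicle libraries. Among 20 cytosolic aminoacyl-tRNA synthetases, which charge tRNA with amino acids, 19 were above 0 and 7 separated upward, with 0 calls and a median of 0.05. The shares over all genes tested were 52.0% above 0 and 6.5% separated upward. The seryl enzyme SARS1 led the synthetases at 0.13 ± 0.04. Of 70 genes in the serine, amino acid, synthetase and stress lists, 55 had a promoter window. TGATGNAA was in 11 of these, against 3.14% of all windows. ASNS and CHAC1 were among the 11, and PSAT1, the only call of these lists, was not.

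**Figure D3:**
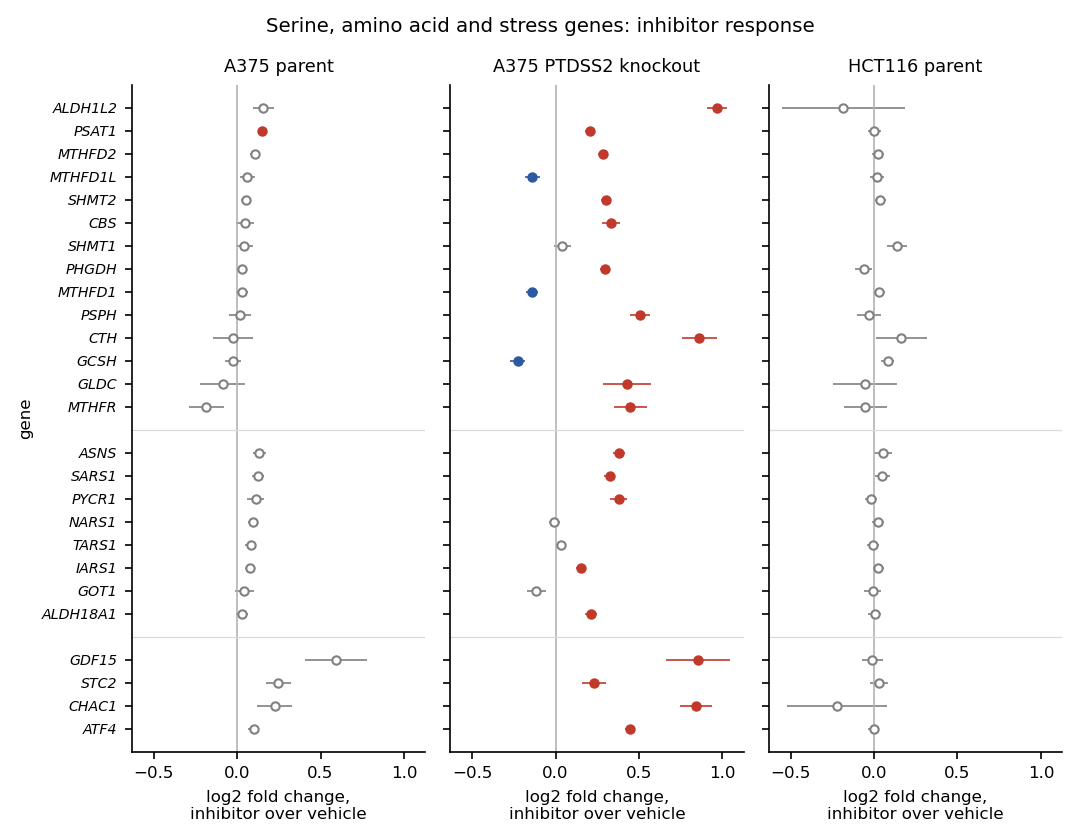
Log2 fold change, inhibitor over vehicle (x axis, points with SE bars), in A375 parent cells, A375 PTDSS2 knockout cells and HCT116 parent cells; blocks from top are serine and one-carbon genes of at least 10 CPM, amino acid and tRNA synthetase genes, and stress genes. Filled points passed an adjusted p of 0.05 (red higher, blue lower): in A375 parent cells only PSAT1, at 0.15, is filled.

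The other genes that fell belong to no lipid pathway. PRRX1 (5396), a homeobox factor of mesenchymal cells, was at 83.7, 82.9 and 85.1 CPM in vehicle and 73.3, 67.4 and 68.2 CPM with the inhibitor, and fell by 0.27 ± 0.05 (edgeR adjusted p = 0.00374). LOXL4 (84171), a lysyl oxidase of the matrix, was at 205.0, 202.1 and 211.7 CPM against 187.8, 177.6 and 172.1 CPM, and fell by 0.21 ± 0.04 (edgeR adjusted p = 0.00175). In both, inhibitor replicate 1 was the nearest to vehicle.

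GSN (2934), which encodes the actin-severing gelsolin, was at 265.7, 262.8 and 254.5 CPM in vehicle and 242.6, 223.8 and 233.4 CPM with the inhibitor, and fell by 0.16 ± 0.03 (edgeR adjusted p = 0.0129). SLC26A2 (1836), a sulfate transporter, was at 657.5, 647.5 and 657.5 CPM against 597.2, 602.0 and 590.5 CPM, and fell by 0.13 ± 0.03 (edgeR adjusted p = 0.00592). The log2 changes of these 4 genes stayed below 0 in every alternative, but the calls were lost with some libraries left out. The PRRX1 call was lost without vehicle replicate 3 (adjusted p = 0.0756), inhibitor replicate 2 (0.0749) or inhibitor replicate 3 (0.0585), and LOXL4 without vehicle replicate 3 (0.0855) or inhibitor replicate 3 (0.0705). GSN was lost without vehicle replicate 1 (0.180), vehicle replicate 2 (0.0826), inhibitor replicate 2 (0.346) or inhibitor replicate 3 (0.0699), and SLC26A2 without vehicle replicate 1 (0.0524), vehicle replicate 3 (0.0913) or inhibitor replicate 3 (0.0714).

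Besides ABCA1 and PSAT1, 3 genes rose. THBS1 (7057), a matrix glycoprotein and YAP target, was the most abundant of the 12 named calls per length, at a mean of 712 TPM (transcripts per 1e6) in vehicle, against 3.81 TPM for ABCA1. It was at 1998, 1995 and 2067 CPM in vehicle and 2202, 2229 and 2205 CPM with the inhibitor, and rose by 0.13 ± 0.02 (edgeR adjusted p = 0.00147, or 0.0524 without vehicle replicate 1). Among 21 YAP and TAZ genes it was the only call, with 7 separated upward, 0 downward and a median of 0.04. Of all genes tested, 6.5% were separated upward and 5.51% downward. CRIM1, of the same list, stood just outside the threshold at 0.13 ± 0.03 (adjusted p = 0.0725), and CCN2 was at 0.15 ± 0.05.

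FST (10468), which encodes the activin binder follistatin, was at 162.8, 138.2 and 149.1 CPM in vehicle and 170.7, 177.2 and 183.9 CPM with the inhibitor, and rose by 0.24 ± 0.05 (edgeR adjusted p = 0.0302). Vehicle replicate 1 was the nearest to the inhibitor libraries. The call was lost without vehicle replicate 2 (adjusted p = 0.138) or vehicle replicate 3 (0.265), and without inhibitor replicate 2 (0.436) or inhibitor replicate 3 (0.226), and also with scaling by library size alone (0.122). AKAP12 (9590), a scaffold of protein kinase A, was at 303.7, 302.6 and 309.8 CPM in vehicle and 352.6, 333.2 and 328.1 CPM with the inhibitor, and rose by 0.15 ± 0.03 (edgeR adjusted p = 0.0489). It held in 4 of 17 alternatives and was lost without any 1 of the 6 libraries (adjusted p from 0.0585 to 0.421).

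Just outside the threshold after CRIM1 came LRFN3 at -0.52 ± 0.13 (adjusted p = 0.118) and the SOX factor gene SOX5 at -0.17 ± 0.04 (adjusted p = 0.157). TSPAN13, DHCR7, NIPAL3 and EEIG1 followed, at -0.18, -0.25, -0.17 and -0.31. All had separated groups, as the calls did.

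The synthase genes and PISD had overlapping levels. PTDSS1, the target, was at 160.4, 169.1 and 166.2 CPM in vehicle and 175.5, 163.1 and 167.2 CPM with the inhibitor, a change of 0.03 ± 0.04. PTDSS2 was at 24.1, 22.2 and 23.2 CPM against 21.4, 24.6 and 22.4 CPM, a change of -0.02 ± 0.10. PISD, which turns phosphatidylserine into phosphatidylethanolamine in mitochondria, was at 0.15 ± 0.08. Of 13 genes of phosphatidylserine and phosphatidylethanolamine synthesis 0 were called, with 3 separated downward (5.51% of all genes) and a median of -0.01. LPIN1, a phosphatidate phosphatase, was 1 of the 3, at -0.15 ± 0.06 (adjusted p = 0.602).

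**Figure D4:**
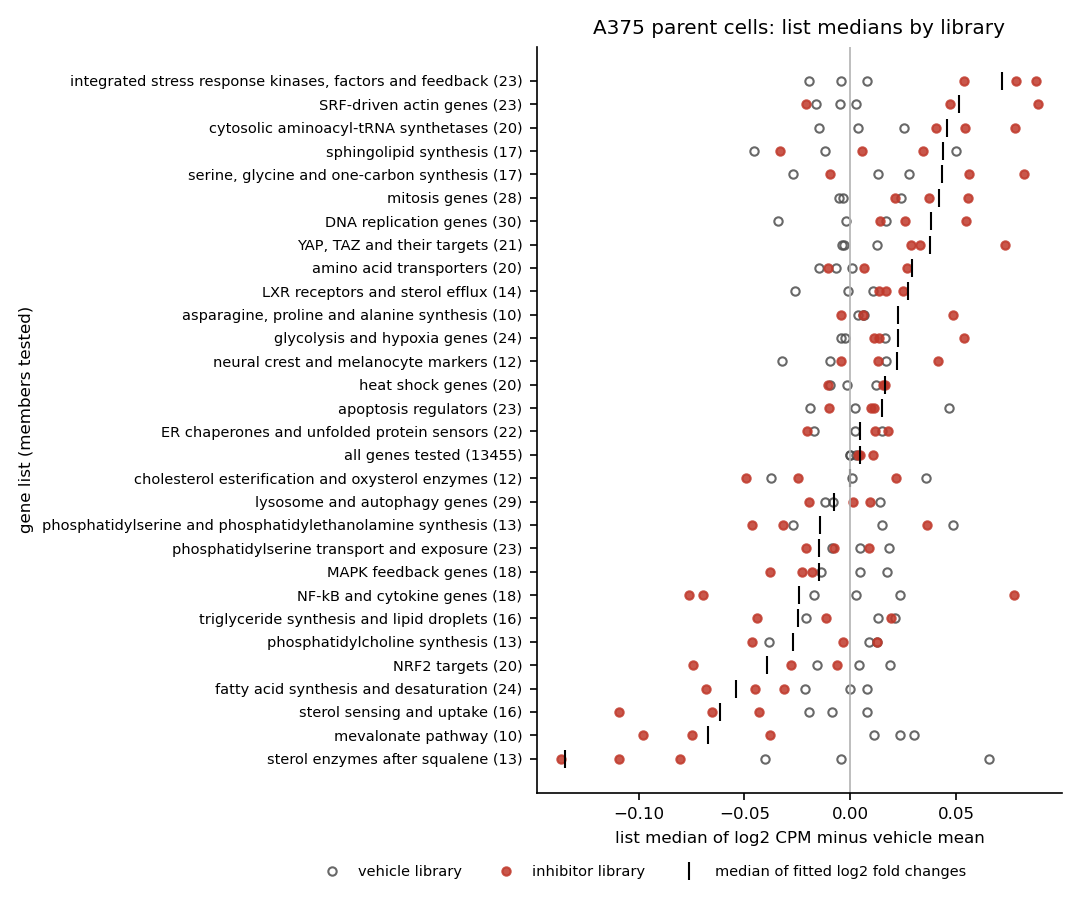
Median over each gene list (rows, members tested in brackets) of log2 CPM minus the mean log2 CPM of the vehicle libraries, for each library of A375 parent cells (x axis); open points are vehicle libraries, filled points inhibitor libraries, and black ticks the median of the fitted log2 fold changes. In the 3 sterol lists at the bottom the filled points lie left of the open points, and in the integrated stress response list at the top they lie right of them.

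Taken library by library, the list medians of the 3 inhibitor libraries all lay below those of the 3 vehicle libraries for 5 of the 30 lists, the 3 sterol lists, fatty acid synthesis and MAPK feedback. They all lay above for 4, the integrated stress response, aminoacyl-tRNA synthetases, YAP and TAZ, and LXR, and the medians of the other 21 overlapped. The LXR list was barely apart (highest vehicle library 0.0105, lowest inhibitor library 0.0136), as was MAPK feedback (lowest vehicle -0.0141, highest inhibitor -0.0179). The median over all genes was itself apart upward (highest vehicle 0.0028, lowest inhibitor 0.0037). How often list medians separate without any change was not tested. For the enzymes after squalene the medians relative to the vehicle mean were -0.04, 0.07 and 0.00 in the vehicle libraries and -0.11, -0.14 and -0.08 in the inhibitor libraries. For the integrated stress response they were 0.01, 0.00 and -0.02 against 0.09, 0.05 and 0.08. ER chaperones, heat shock genes, NF-kB and cytokine genes, mitosis and DNA replication were among the overlapping lists and had 0 calls.

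In A375 PTDSS2 knockout cells the same dose changed far more genes, 5048 or 37.5% of those tested, of which 18.7% rose and 18.8% fell. All 9 genes that fell in the parent rose in the knockout. SREBF2 rose there by 0.57 ± 0.04 and SCD by 0.55 ± 0.03. INSIG1 was at 27.3, 27.9 and 29.7 CPM in knockout vehicle and 56.3, 54.6 and 56.9 CPM in knockout inhibitor libraries, a rise of 0.98 ± 0.07 where the parent had fallen. The parent and knockout effects share no library, and the edgeR test of their difference passed for all 9 (adjusted p = 1.02e-17 for INSIG1). The 9 genes were chosen by their fall in the parent libraries, which also enter the difference, so the test is not independent of that choice. Over all genes that difference passed for 27.3%, and 13.3% with the knockout effect the higher.

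ABCA1 and PSAT1 rose in both. ABCA1 rose by 0.75 ± 0.09 in the knockout, and its difference from the parent effect, 0.17 ± 0.13, did not pass (edgeR adjusted p = 0.354). PSAT1 rose by 0.21 ± 0.03, with a difference of 0.06 ± 0.04 (adjusted p = 0.317). A p that misses the threshold does not show equal effects. THBS1 went the other way and fell by 1.27 ± 0.02 in the knockout, from 2508, 2569 and 2607 CPM to 1064, 1064 and 1060 CPM, with a difference from the parent effect of -1.40 ± 0.03 (edgeR adjusted p = 1.28e-40).

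**Figure D5:**
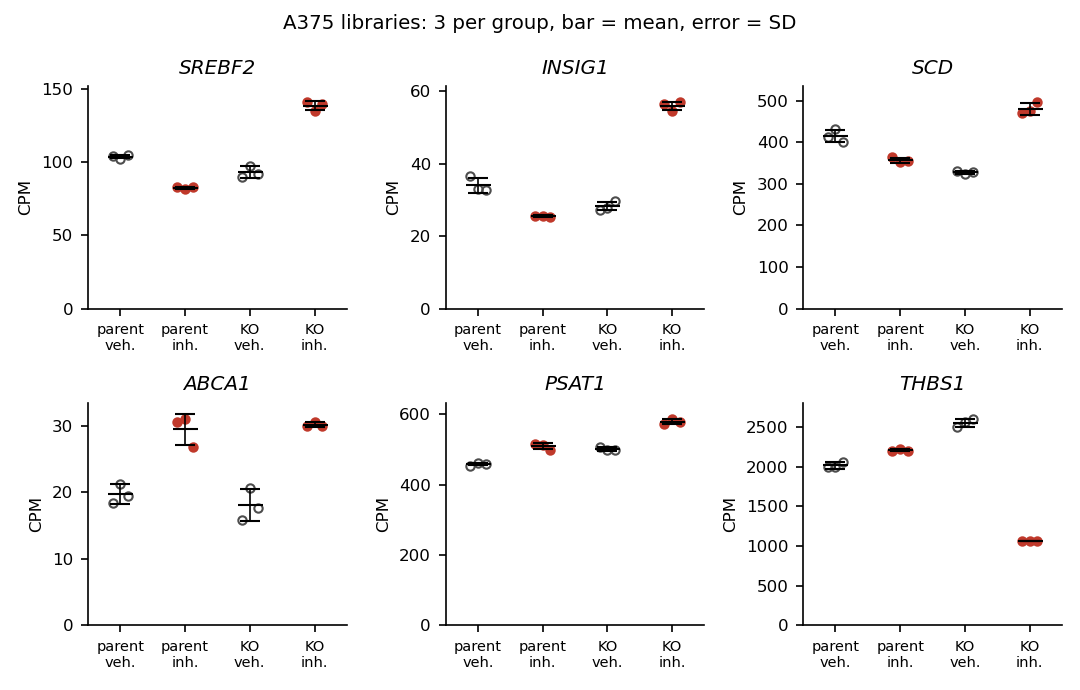
CPM (y axis, from 0) of 6 called genes in the 12 A375 libraries, parent and PTDSS2 knockout (KO), vehicle (veh., open) and inhibitor (inh., filled); bars are means and error bars SD of 3 libraries. SREBF2, INSIG1 and SCD fall with the inhibitor in the parent and rise in the knockout, ABCA1 and PSAT1 rise in both, and THBS1 rises in the parent and falls in the knockout.

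The medians of gene lists differed between parent and knockout as well. That of the sterol genes changed sign, while those of the integrated stress response and ER chaperones were larger in the knockout. For scale, 18.7% of all genes tested rose in the knockout and 18.8% fell. Of the 39 sterol genes 24 rose and 1 fell in the knockout, with a median of 0.27, and the difference of effects passed upward for 21 and downward for 1. Of all 13455 genes tested, that difference passed upward for 1790 and downward for 1884. SREBF1, whose libraries overlapped in the parent, rose by 0.35 ± 0.04 in the knockout. Of 23 genes of the integrated stress response 18 rose in the knockout, with a median of 0.56. ATF4 rose there by 0.45 ± 0.03, more than in the parent by 0.35 ± 0.04 (edgeR adjusted p of the difference = 2.53e-09). For GDF15 the difference, 0.26 ± 0.27, did not pass (adjusted p = 0.524). The list of ER chaperones had a median of 0.00 in the parent and of 0.45 in the knockout, where 20 of 22 rose.

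HCT116 parent cells, given the same dose for the same time, had 0 calls among 13164 genes, or 0.0%, by edgeR. An unadjusted p under 0.05 was reached by 530 genes, where 658.2 would be expected if no gene had changed. By DESeq2 there was 1 call and by limma-voom 0. Of the 39 sterol genes 20 were below 0, with a median of 0.00. In 6 the inhibitor libraries all lay below the vehicle libraries and in 1 all above, against 4.95% and 4.75% of all genes tested in HCT116. SREBF2 was at -0.09 ± 0.04, INSIG1 at 0.02 ± 0.06, SCD at -0.02 ± 0.03 and PSAT1 at 0.00 ± 0.04. Among the uncalled genes, SQLE was at -0.15 ± 0.05, MSMO1, the methylsterol oxidase, at -0.15 ± 0.06 and HMGCS1 at -0.13 ± 0.05. ABCA1 was scarce in HCT116, at a mean of 1.14 CPM in vehicle, and its change of 0.24 ± 0.37 was smaller than its error.

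Tested directly over all 24 libraries, the inhibitor effect differed between the 2 parent lines for 2 of 14637 genes, or 0.0137%. They were INSIG1, lower in A375 by 0.45 ± 0.09, and SCD, lower by 0.20 ± 0.04 (edgeR adjusted p = 0.0405 for both). Neither passed without A375 vehicle replicate 1, A375 vehicle replicate 2 or any 1 of the 3 A375 inhibitor libraries, nor in the fit of the 12 parent libraries alone, and INSIG1 was lost with DESeq2 (0.214) and limma-voom (0.0939) as well (adjusted p up to 0.448 for INSIG1 and 0.447 for SCD over all alternatives). The other calls had no difference between lines past the threshold, for SREBF2 -0.24 ± 0.06 (adjusted p = 0.186) and for PSAT1 0.14 ± 0.05 (adjusted p = 0.798).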

How the data were processed

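Poly(A) RNA libraries were made with an NEBNext Ultra RNA kit, per the labels' protocols. The submitters' processing notes name STAR 2.4.2a, RSEM 1.2.23 and the build hg19. The annotation release, strand setting and filters were not given in the sources used here. Per the file headers, the authors deposited RSEM expected counts, which can be fractional because reads matching several genes are shared out, and TPM, which the authors scaled for gene length and depth. TPM was used only for levels between genes. Of 25343 listed genes, 25220 matched a symbol in a RefSeq gene table (GRCh38.p14, names only), 123 did not, and expected counts were rounded.

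The 12 libraries of a line entered 1 fit in edgeR 4.0.16 under R 4.3.3 (a mean per group, TMM scaling, filterByExpr with a minimum count of 10 and total of 15, robust quasi-likelihood F test, two-sided, Benjamini-Hochberg). A gene was called at an adjusted p under 0.05, and errors of log2 changes are standard errors. The difference between lines used all 24 libraries. CPM are TMM-scaled. The fit was tested on 1 simulated set of the A375 libraries with changes placed in the parent inhibitor group. It called 6 of 50 genes changed 1.1-fold, 31 of 50 changed 1.25-fold, 38 of 50 changed 1.5-fold and 44 of 50 changed 2-fold. Of its 126 calls 7 were false. With nothing changed there were 0 calls.

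Members and lists were chosen with earlier results of these data known. The text names all calls, PTDSS1, PTDSS2, PISD, up to 4 members of each of 30 lists by smallest p, members of the sterol, LXR and serine lists, and the 8 genes just outside the threshold. Some genes that this rule named, 2 of the 14 calls among them, are not reported here. Alternatives were other scaling (DESeq2 size factors, library size), no filter or a 5 CPM filter, DESeq2 1.42.0, limma-voom 3.58.1, the 6 or all 24 libraries, a replicate block, each library left out, and, added after seeing the data, thinning to 1 depth. Libraries of a group differed beyond sampling noise (chi-square per degree of freedom 1.48 to 1.98).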

Additional observations from a re-analysis of the deposited data

Results flagged for a closer look

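By edgeR's test, the inhibitor effect in the knockout differed from that in the parent for all 9 genes that fell in the parent. It also differed for 3 of the 5 that rose. Over all genes tested, 27.3% passed this test. Of the genes that passed, 10 are given here and the others are not reported. On the log2 scale, knockout minus parent, the difference was 1.40 for INSIG1, 0.96 for PRRX1, 0.91 for SREBF2, 0.88 for GSN, 0.77 for SCD, 0.62 for SLC26A2 and 0.53 for LOXL4. It was -1.40 for THBS1, -0.22 for AKAP12 and -0.18 for FST. These genes were chosen by their parent effect, which also enters the difference, so the test is not independent of that choice. In the knockout itself AKAP12, at -0.07 ± 0.04, and FST, at 0.06 ± 0.04, were not called. The FST difference was lost without parent vehicle replicate 2 or vehicle replicate 3, without inhibitor replicate 2 or inhibitor replicate 3, and with DESeq2 or its size factors (adjusted p up to 0.128).

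The effect in A375 parent cells minus that in HCT116 parent cells was -0.45 for INSIG1 and -0.20 for SCD, past the threshold in the fit of all 24 libraries.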

How the results depend on the processing

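The 14 calls of the parent comparison were 12 to 20 over the alternatives that kept all libraries and 9 to 15 (3 to 5 higher, 5 to 11 lower) with a library left out. The fewest came without vehicle replicate 3, which leaves 2 vehicle libraries. With library size alone 3 genes were called higher, and with no filter 9. SREBF2, SCD and ABCA1 were called in 17 of 17 alternatives, and none of the 14 changed direction in any alternative. The numbers of the replicates did not pair the libraries (same-number correlations 0.035, -0.034 and 0.135). With a replicate block there were 17 calls over 12 libraries and 20 over 6, and the block lost AKAP12 in the fit of 6 libraries. The 2 calls of the difference between parent lines were 1 with limma-voom (1 lower) and 0 in the fit of the 12 parent libraries; with a library left out they were 0 to 3 (0 to 1 higher, 0 to 3 lower). Calls for the knockout minus the parent were 2610 with DESeq2 against 3674. Where all libraries were kept the causes of these shifts were not tested.

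The median standard error of a log2 change was 0.08 over all genes and 0.04 over genes of at least 100 CPM. A standard error is no limit of detection, and changes well above it could be missed with 3 libraries a group. The smallest change called was 0.13, and the low-level genes STARD4, at -0.55 ± 0.17, and GDF15, at 0.59 ± 0.19, were not called.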

Other observations

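Other gene groups showed small leans in A375 parent cells without a call. For scale, 52.0% of all genes tested had a log2 change above 0, 6.5% were separated upward and 5.51% downward. Of 30 DNA replication genes 24 had a log2 change above 0 with the inhibitor and 5 were separated upward, with a median of 0.04. Of 28 mitosis genes 21 were above 0 and 4 were separated upward, also with a median of 0.04. In the knockout 28 and 27 genes of these lists fell, against 18.8% of all genes tested. SRF-driven actin genes had 5 members separated upward and 1 downward, with a median of 0.05, and glycolysis and hypoxia genes had 6 upward and 0 downward, with a median of 0.02. VEGFA, the angiogenic factor of the latter list, was at 62.3, 65.2 and 63.8 CPM in vehicle and 68.8, 68.3 and 69.3 CPM with the inhibitor, a change of 0.11 ± 0.05. Among 18 MAPK feedback genes 4 were separated downward and 2 upward, with a median of -0.01. CCND1, which encodes cyclin D1, was separated upward at 0.07 ± 0.03. Separated downward was SPRY4, an inhibitor of receptor signalling, which was at 157.4, 153.1 and 154.5 CPM in vehicle and 144.8, 140.8 and 138.8 CPM with the inhibitor, a change of -0.13 ± 0.04 (edgeR adjusted p = 0.337).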
